A study of Homo sapiens with 22 samples.

Results

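10 genes that define retinal pigment epithelium were followed through 12 ChIP-seq peak lists of cohesin, its regulators and CTCF in hTERT RPE-1, a telomerase-immortalised human cell line derived from that epithelium. They are MITF, OTX2, PAX6, SOX9, RPE65, RLBP1, BEST1, TYR, PMEL and SERPINF1, 10 of the 19970 protein-coding genes of chromosomes 1 to 22 and X in the RefSeq table used. A peak belonged to a gene when its summit lay in the gene body or within 50 kb of either end, a stretch called the gene window here. The 10 windows held 273 of the 341123 peaks of the 12 lists. The genes were chosen by what they are known for and not by a rule on their peaks, but with earlier results of these data known. Peak lists measure binding and not expression, so whether these cells still express the 10 genes was not tested.

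Each list came from 1 immunoprecipitation in asynchronously cycling cells. The wild-type hTERT RPE-1 line gave the CTCF and WAPL lists. All other lists came from clones A2 and D7, 1 clone each, in which NIPBL carries FKBP12(F36V), a degron domain through which the small molecule dTAGV-1 drives degradation of the protein. The degron is preceded by mCherry and P2A in clone A2 and by mGreenLantern and P2A in clone D7. RAD21 was precipitated in both clones after 24 h in DMSO, the solvent control, after 4 h in dTAGV-1 and after 24 h in dTAGV-1, with about 10% mouse NIH/3T3 chromatin as spike-in, which was not used here. Clone D7 also gave PDS5A after 24 h in DMSO with the same spike-in, and STAG1 and STAG2 with no spike-in and no treatment in their labels. Clone A2 also gave an HA list, from chromatin fixed with DSG and formaldehyde where all other lists used formaldehyde only, and the peak names of that list read HA-NIPBL. With 1 library in every group, differences have no replicate check and no p-value is given. The clones carry different reporters and were not treated as replicates of each other. Intervals are 95% Wilson intervals, which cover counting error only.

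The retinal pigment epithelium is the pigmented cell layer behind the photoreceptors, which recycles visual pigment, takes up shed photoreceptor membrane and makes melanin. MITF and OTX2 are transcription factors that switch on its pigment genes, PAX6 and SOX9 act with them, and the remaining members are genes that the mature tissue uses. Cohesin is a ring-shaped complex that draws chromatin into loops, with RAD21 as the subunit that closes the ring and STAG1 or STAG2 as its alternative accessory subunit. NIPBL loads cohesin and keeps it moving, PDS5A and WAPL regulate it and act in its release, and CTCF is a DNA-binding protein at which moving cohesin is held.

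The 3 stretches below show the DNA just before the start of a regulator and of 2 genes of the mature tissue. Each is the 250 bases before an annotated start, 5′ to 3′ along the gene, from the RefSeq promoter table of GRCh38.p14. The first is the most upstream of the 3 MITF starts, a promoter where RAD21 and STAG1 peaks lay with no CTCF peak (chr3:69739214-69739463, plus strand), and its capitals mark the 94 bases that lie inside the STAG1 peak, the clone D7 DMSO RAD21 peak and the clone D7 4 h RAD21 peak alike. The other two belong to genes that MITF or OTX2 are known to act on, RLBP1 (chr15:89221580-89221829, minus strand) and TYR (chr11:89177625-89177874, plus strand), and no peak of any list overlapped them. Their capitals mark matches to CATGTG, the core of the M-box that MITF binds, on either strand (CACATG is the same match on the other strand), and to TAATCC, a motif bound by OTX2 and CRX.
MITF: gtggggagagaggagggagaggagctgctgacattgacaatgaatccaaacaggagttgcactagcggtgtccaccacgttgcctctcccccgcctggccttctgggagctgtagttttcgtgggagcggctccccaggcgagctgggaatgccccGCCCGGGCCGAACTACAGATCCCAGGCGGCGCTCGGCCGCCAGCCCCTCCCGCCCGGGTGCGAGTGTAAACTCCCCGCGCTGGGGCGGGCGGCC
RLBP1: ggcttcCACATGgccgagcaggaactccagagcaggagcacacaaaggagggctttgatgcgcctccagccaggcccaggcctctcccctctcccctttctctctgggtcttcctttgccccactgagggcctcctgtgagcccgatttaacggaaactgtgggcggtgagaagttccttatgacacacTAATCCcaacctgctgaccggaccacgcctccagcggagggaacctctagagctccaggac
TYR: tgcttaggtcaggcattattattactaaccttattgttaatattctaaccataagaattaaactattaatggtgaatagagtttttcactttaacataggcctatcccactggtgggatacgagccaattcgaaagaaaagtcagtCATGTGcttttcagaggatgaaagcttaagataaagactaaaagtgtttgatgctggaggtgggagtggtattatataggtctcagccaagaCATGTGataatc
The TYR promoter held CATGTG at 104 and at 12 bases before the start, and the RLBP1 promoter held CATGTG at 244 and TAATCC at 61 bases before the start. The RPE65 promoter, not shown, held neither motif. CATGTG also lay before an OTX2 start and before some PAX6 starts, but not before the others. CATGTG was found in 7.6% of the 22155 promoters of the table, TAATCC in 4.86%, and CACGTG, an E-box searched in the same way, in 7.37%. The MITF stretch held none of these motifs and no CTCF core motif, which 0.406% of promoters held. Its GC content was 68%, that of RLBP1 60.4% and that of TYR 36%, beside a median of 62% over all promoters.

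CTCF was the protein with the most peaks in the windows, 52 in all, and each of the 10 genes had at least 1. Over all protein-coding gene windows the lower quartile was 3 CTCF peaks, so having at least 1 was common. RAD21 had 33 peaks in clone A2 in DMSO and 30 in clone D7 in DMSO, STAG1 20, STAG2 16 and PDS5A 23. WAPL had 2 and HA 1. A median member had 5.5 CTCF peaks, 3.5 clone A2 DMSO RAD21 peaks and 3 clone D7 DMSO RAD21 peaks, beside medians of 5, 3 and 3 over all protein-coding gene windows. The medians of STAG1, STAG2 and PDS5A were 2, 1.5 and 2, beside 2, 1 and 3 over all windows. By these counts the 10 genes held about as many peaks as a typical gene window of the same lists.

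**Figure D1:**
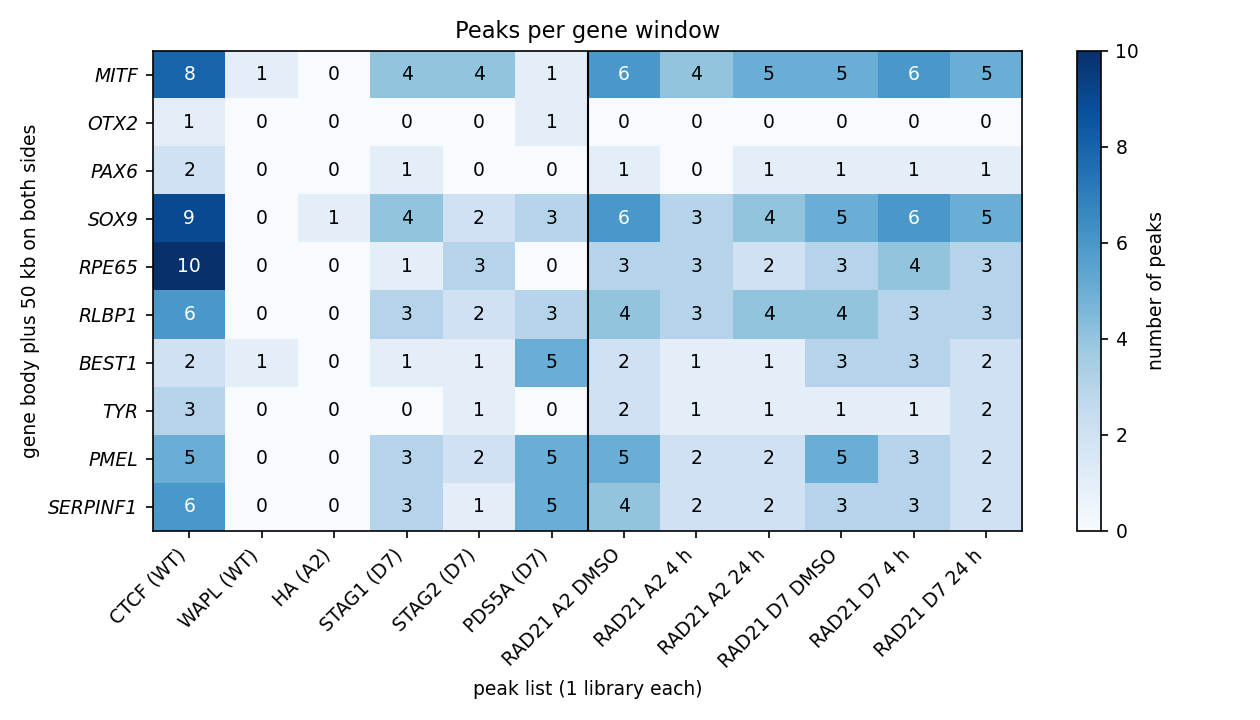
Number of peaks in each gene window (rows) in each of the 12 peak lists (columns); each column is 1 library and darker cells hold more peaks. RPE65 has the most CTCF peaks, 10, OTX2 has no RAD21 peak in any column, and MITF and SOX9 have the most RAD21 peaks, up to 6.

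The genes differed widely among themselves. MITF, the master regulator of pigment cells, had 8 CTCF peaks, and its RAD21 peaks numbered 6, 4 and 5 in clone A2 (DMSO, 4 h, 24 h, the order used from here on) and 5, 6 and 5 in clone D7. SOX9, a transcription factor also known from cartilage, had 9 CTCF peaks, and its RAD21 peaks numbered 6, 3 and 4 for clone A2 against 5, 6 and 5 for clone D7. These were the members with the most RAD21 peaks over the 6 lists. PAX6, the eye-field transcription factor, had 2 CTCF peaks and never more than 1 RAD21 peak per list, namely 1, 0 and 1 for clone A2 against 1, 1 and 1 for clone D7. OTX2, the homeobox factor that acts beside MITF, had 1 CTCF peak, 1 PDS5A peak and no RAD21, STAG1 or STAG2 peak in any list. Windows without a RAD21 peak in any of the 6 lists made up 7.22% of all protein-coding gene windows.

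Among the genes of the mature tissue, RPE65, the isomerase of the visual cycle, had the most CTCF peaks, 10, with 3, 3 and 2 RAD21 peaks in clone A2 against 3, 4 and 3 in clone D7. RLBP1, which encodes the retinaldehyde-binding protein CRALBP, had 6 CTCF peaks, 4, 3 and 4 RAD21 peaks in clone A2 against 4, 3 and 3 in clone D7. BEST1, a chloride channel of the basolateral membrane, had 2 CTCF peaks, 2, 1 and 1 RAD21 peaks in clone A2 against 3, 3 and 2 in clone D7. These 3 genes had RAD21 peaks in all 6 lists, as had MITF, SOX9, TYR, PMEL and SERPINF1, 8 of the 10 members, beside 76.4% of all gene windows.

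TYR, tyrosinase, the enzyme that starts melanin synthesis, had 3 CTCF peaks, 2, 1 and 1 RAD21 peaks in clone A2 against 1, 1 and 2 in clone D7. PMEL, which forms the fibrils on which melanin is laid down, had 5 CTCF peaks, 5, 2 and 2 RAD21 peaks in clone A2 against 5, 3 and 2 in clone D7. SERPINF1, which encodes the secreted factor PEDF, had 6 CTCF peaks, 4, 2 and 2 RAD21 peaks in clone A2 against 3, 3 and 2 in clone D7. PMEL was the one member of 10 with fewer RAD21 peaks in all 4 dTAGV-1 lists than in its clone's DMSO list, beside 15.4% of all gene windows. The PMEL window also holds 6 other protein-coding genes (PYM1, DGKA, CDK2, RAB5B, SUOX and IKZF4) and the SERPINF1 window 3, whereas MITF, OTX2 and SOX9 are alone in theirs, so a peak of a window need not act on the gene it was assigned to.

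After dTAGV-1 the numbers of called peaks differed between the clones at 4 h and were below DMSO in both at 24 h. Among peaks with a −log10 q of at least 10, the 4 h ratios to DMSO were 0.75 in clone A2 and 0.84 in clone D7. In clone A2 the windows held 19 RAD21 peaks at 4 h and 22 at 24 h, 0.576 and 0.667 times the 33 in DMSO. At 4 h, 8 of the 10 genes had fewer peaks than in DMSO and 0 had more; over all protein-coding gene windows 63.8% had fewer and 1.94% more. At 24 h, 7 had fewer and 0 more, beside 59.6% and 5%. The members' shares lay near these backgrounds.

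In clone D7 the windows held 30 RAD21 peaks at 4 h, as many as in DMSO, and 25 at 24 h, 0.833 times that number. At 4 h, RLBP1 and PMEL had fewer peaks than in DMSO and MITF, SOX9 and RPE65 had more, 2 against 3 genes, beside 23.3% and 35.3% of all windows. At 24 h, RLBP1, BEST1, PMEL and SERPINF1 had fewer and TYR more, 4 against 1, beside 51.8% and 9.53%. Most genes of clone D7 thus stood at their DMSO count or 1 peak from it, and PMEL, with 5, 3 and 2 peaks, departed furthest.

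The number of peaks in the windows followed the length of the lists, of which the windows held 0.0831%, 0.0737% and 0.077% for clone A2 against 0.0799%, 0.0768% and 0.083% for clone D7. Read totals were not part of the lists, so the lowest background pileup, recovered from the fold enrichment and p of the peaks, stands in for depth. It was 1.87, 3.16 and 2.83 in the 3 lists of clone A2 and 3, 4.05 and 3.07 in those of clone D7. When each RAD21 list was held to the peaks with the highest −log10 q, as many as the shortest list has, clone A2 had 19 peaks in DMSO, 19 at 4 h and 20 at 24 h, so the ratios became 1 and 1.05; those of clone D7 became 0.9 and 1. As the windows hold a similar share of every list, such a cut brings the ratio near 1 by its construction. The part of depth in the difference between DMSO and dTAGV-1 was not tested.

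Which peaks were found again after dTAGV-1 was followed by overlap of at least 1 bp. In clone A2, 19 of the 33 DMSO peaks (57.6%, interval 40.8 to 72.8) overlapped a RAD21 peak at 4 h and 19 of 33 at 24 h (57.6%, interval 40.8 to 72.8); over the whole list the shares were 62.2% and 64%. In clone D7, 24 of the 30 DMSO peaks (80%, interval 62.7 to 90.5) were retained at 4 h and 22 (73.3%, interval 55.6 to 85.8) at 24 h, beside 80% and 68.8% of the whole list. All 4 whole-list shares lay inside the interval of the windows.

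Retention was also counted separately for peaks with and without CTCF, the latter being few. Of the clone A2 DMSO peaks that overlapped a CTCF peak, 19 of 27 (70.4%) were retained at 4 h and 19 of 27 at 24 h, beside 71.5% and 71% over the whole list. Of the 6 clone A2 DMSO peaks without CTCF, 0 were retained at 4 h and 0 at 24 h (interval 0 to 39%; by the rule that a count of 0 allows up to 3, a share of up to 50%), beside 5.19% and 21.4% over the whole list. These 6 were weak peaks, with fold enrichments of 2.89 to 6.42 in DMSO, and the retained clone A2 peaks began at 6.06. CTCF and peak strength thus cannot be told apart for them. In clone D7, 21 of 26 CTCF-overlapping peaks (80.8%) were retained at 4 h and 21 of 26 at 24 h, beside 86.1% and 77.5%. Of the 4 clone D7 DMSO peaks without CTCF, 3 (75%, interval 30.1 to 95.4) were retained at 4 h and 1 (25%, interval 4.56 to 69.9) at 24 h, beside 50.3% and 25.8%. In clone D7 the intervals of peaks with and without CTCF overlap at both times.

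**Figure D2:**
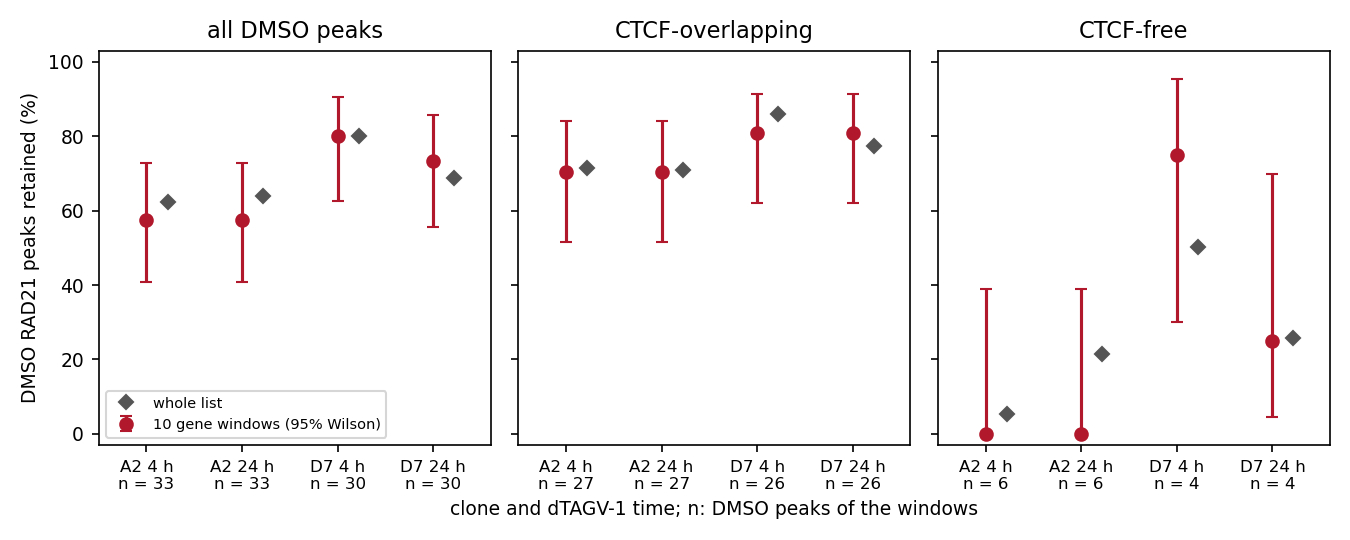
Percent of DMSO RAD21 peaks that overlapped a RAD21 peak after dTAGV-1, for each clone and time; circles with bars are the 10 gene windows with 95% Wilson intervals, diamonds the whole list, and n is the number of DMSO peaks of the windows. The CTCF-free peaks of clone A2, all with a DMSO fold enrichment of 6.42 or less, sit at 0 at both times. The CTCF-overlapping peaks sit at 70.4% in clone A2 and 80.8% in clone D7.

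The peaks that were not found again had a lower median fold in their DMSO list than those that were. Fold enrichments are the authors' values per peak, used here only to describe or rank peaks within a list. In clone A2, the 19 DMSO peaks retained at 4 h had a median DMSO fold of 29.1 and the 14 that were not retained a median of 4.95, beside 23.2 and 5.92 over the whole list. At 24 h the medians were 19.9 and 4.95. In clone D7 the medians were 11.9 for the retained and 6.24 for the other peaks at 4 h, and 12.2 and 6.08 at 24 h. The ranges overlap: in clone A2 the retained peaks began at a fold of 6.06, while peaks that were not retained reached 19.5 at 4 h, at the broad SOX9 site, and 35.2 at 24 h. The latter, 20.6 kb to the right of RPE65 (chr1:68470076-68471007), was present at 4 h and absent at 24 h in clone A2, and present in all 3 lists of clone D7. Its folds were 35.2 and 26.2 in clone A2 in DMSO and at 4 h, and 7.73, 3.67 and 34.4 in clone D7. At this site the clone D7 list at 24 h thus stood nearer to clone A2 in DMSO than to clone D7 in DMSO. Whether the 24 h lists resemble those of the other clone more widely was not tested.

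The share of RAD21 peaks on CTCF was 81.8% (27 of 33) in clone A2 in DMSO, 100% (19 of 19) at 4 h and 90.9% (20 of 22) at 24 h, beside 85.9%, 97.9% and 90.7% over the whole lists. In clone D7 it was 86.7% (26 of 30), 80% (24 of 30) and 92% (23 of 25), beside 83.1%, 78.2% and 90.7%. At 4 h the share was thus above DMSO in clone A2 and below it in clone D7, in the windows as in the whole lists, and the intervals of the 6 window shares overlap. Seen from CTCF, 33 of the 52 CTCF peaks (63.5%) overlapped RAD21 in at least 1 list, beside 67.9% of all CTCF peaks. The CTCF peaks with RAD21 had a median fold of 37.7 and the 19 without a median of 4.38, beside 32.4 and 5.57 over the whole CTCF list. The gap was wide at some genes and absent at others. At MITF the 4 CTCF peaks with RAD21 had folds of 37.7 to 54, and the 4 without reached 13.3 at most. At RPE65, SOX9 and SERPINF1 the ranges overlap: peaks with RAD21 began at 2.99, 3.18 and 5.35, and peaks without it reached 7.81, 6.3 and 6.33. At OTX2 and PAX6, where no CTCF peak met RAD21, the CTCF folds were 3.27 and at most 5.7.

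When overlapping RAD21 peaks of the 6 lists were merged, the windows held 43 sites. Of these, 16 were present in all 6 lists, beside 34.7% of all RAD21 sites of the series, 11 in 1 list only, beside 25.1%, and 16 in 2 to 5 lists. CTCF overlapped 31 of the 43 sites, beside 73.7% of all sites. All 16 sites present in every list overlapped CTCF, beside 99.4% of such sites in the series, and 3 of the 11 sites seen in 1 list did, beside 37.9%. The middle of 13 sites lay inside the body of a member, and 13 of the 30 flank sites lay in the body of another protein-coding gene. The matching shares over all gene windows were not counted.

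**Figure D3:**
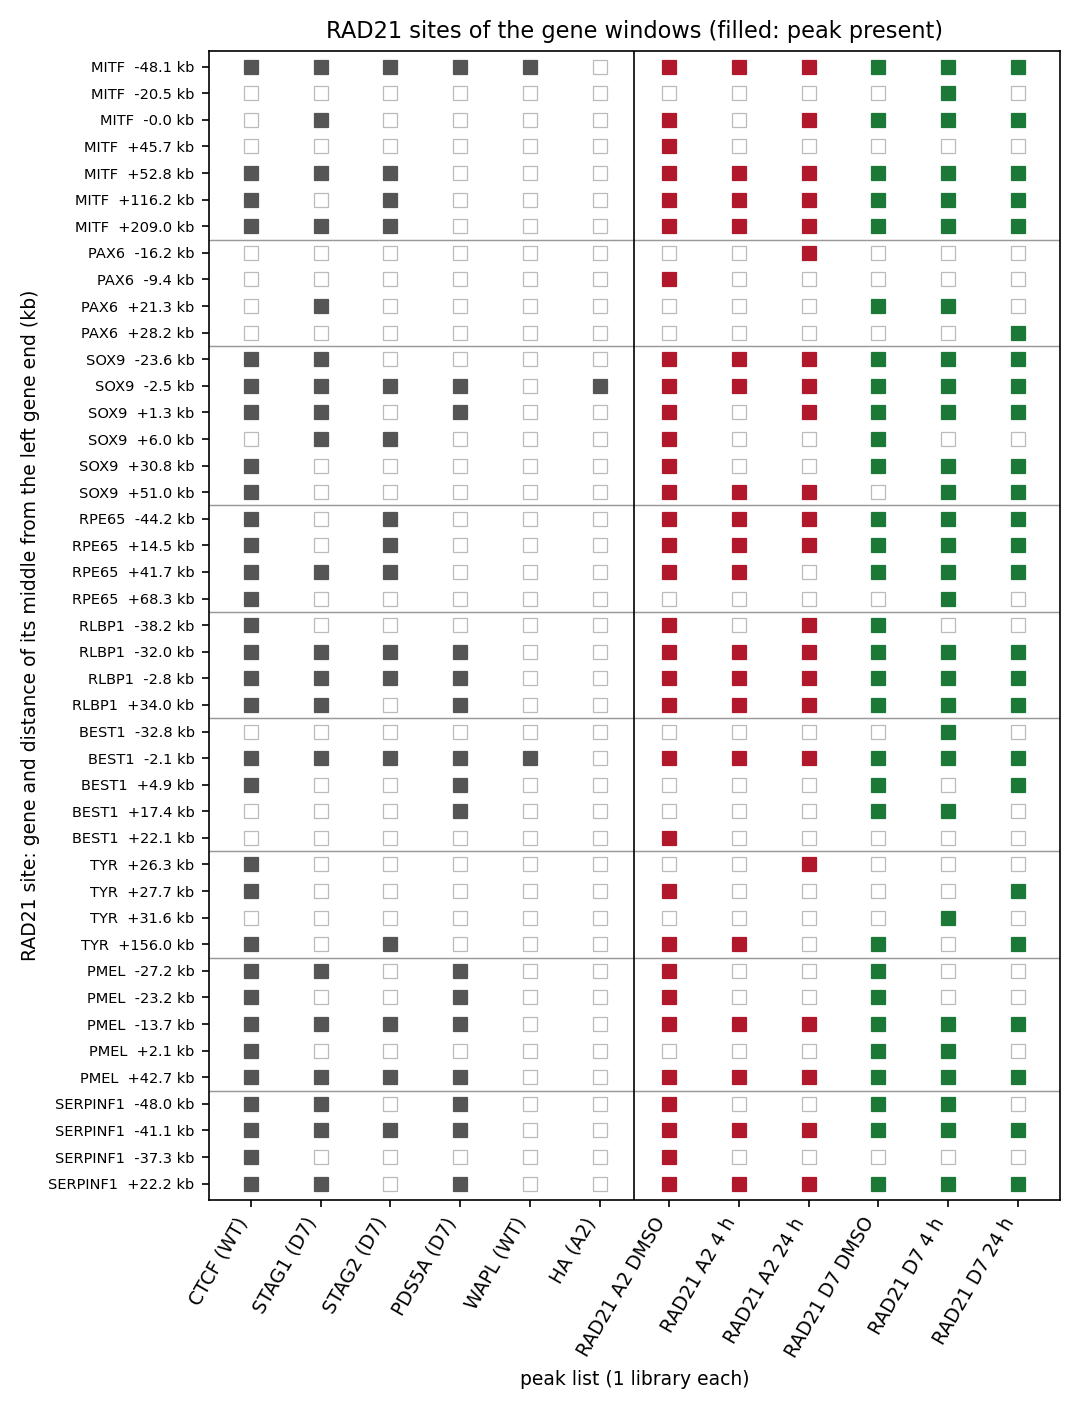
The 43 merged RAD21 sites of the gene windows (rows, with the distance of the middle of the site from the end of the gene with the lower coordinate, in kb) and the 12 peak lists (columns); a filled square is a peak that overlaps the site, in red for clone A2 RAD21 and in green for clone D7 RAD21. The 16 rows filled in all 6 RAD21 columns are all filled under CTCF; OTX2 has no row because it had no RAD21 site.

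Of the sites present in all 6 lists, 3 had the highest clone D7 DMSO fold. At SOX9 the site lay 2.5 kb to the left of the gene (chr17:72117841-72119286), with a fold of 63.2, the highest of the 30 clone D7 DMSO peaks of the windows, and it carried CTCF, STAG1, STAG2 and PDS5A. At MITF it lay 48.1 kb upstream (chr3:69690766-69691970), with a fold of 63, and carried the same 4 proteins. At RLBP1 it lay 2.8 kb to the left of the gene (chr15:89206522-89207672), with a fold of 51.9 and the same 4 proteins. The MITF site is also the member site nearest to the inner edge of the 50 kb window, its summit being 48.2 kb from the gene. The clone D7 DMSO peak nearest to the outer edge lay 50.5 kb from BEST1, with a fold of 42.7 (chr11:61898848-61899742), and is not counted. Another lay 52.0 kb from BEST1, with a fold of 47.8 (chr11:61897295-61898312), and is not counted either. Both exceed the highest fold inside the BEST1 window, 36.6. A further peak lay 53.3 kb from PAX6, with a fold of 38.1 (chr11:31870782-31871699), and is left out of the PAX6 counts.

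The peak with the highest clone D7 DMSO fold in each other window was as follows. At BEST1 it was a site 2.1 kb to the left of the gene (chr11:61947233-61948245), with a fold of 36.6, present in all 6 lists. At PMEL it was a site in the body of DGKA (chr12:55939974-55940922), with a fold of 29.7, and at SERPINF1 a site in the body of WDR81 (chr17:1720543-1721441), with a fold of 23.2, both present in all 6 lists. At RPE65 it was a site within the gene (chr1:68442964-68443622), with a fold of 12.1, also present in all 6. The weakest were in the body of NOX4 beside TYR (chr11:89333564-89334180), with a fold of 5.5 and a peak in 4 of the 6 lists, and at a PAX6 start, with a fold of 3.79 and a peak in 2 lists. All of these except the PAX6 peak overlapped CTCF.

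Of the 43 sites, 3 (6.98%) were shared by the DMSO lists of the clones and missing from all 4 dTAGV-1 lists, beside 3.61% of all RAD21 sites. The strongest lay at the right end of SOX9 (chr17:72126400-72127629), with folds of 6.42 (clone A2) and 9.34 (clone D7), and carried STAG1 and STAG2 but no CTCF peak. The others lay in the PMEL window at neighbouring genes, in the body of PYM1, 410 bp from an end of DGKA (chr12:55926683-55927129, clone D7 fold 4.32), and in the body of DGKA (chr12:55930650-55931134, clone D7 fold 6.98). Both PMEL sites overlapped CTCF and PDS5A. None of the 3 lay in the body of a member other than SOX9, at whose right end the first begins, and the other 8 members had no such site.

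**Figure D4:**
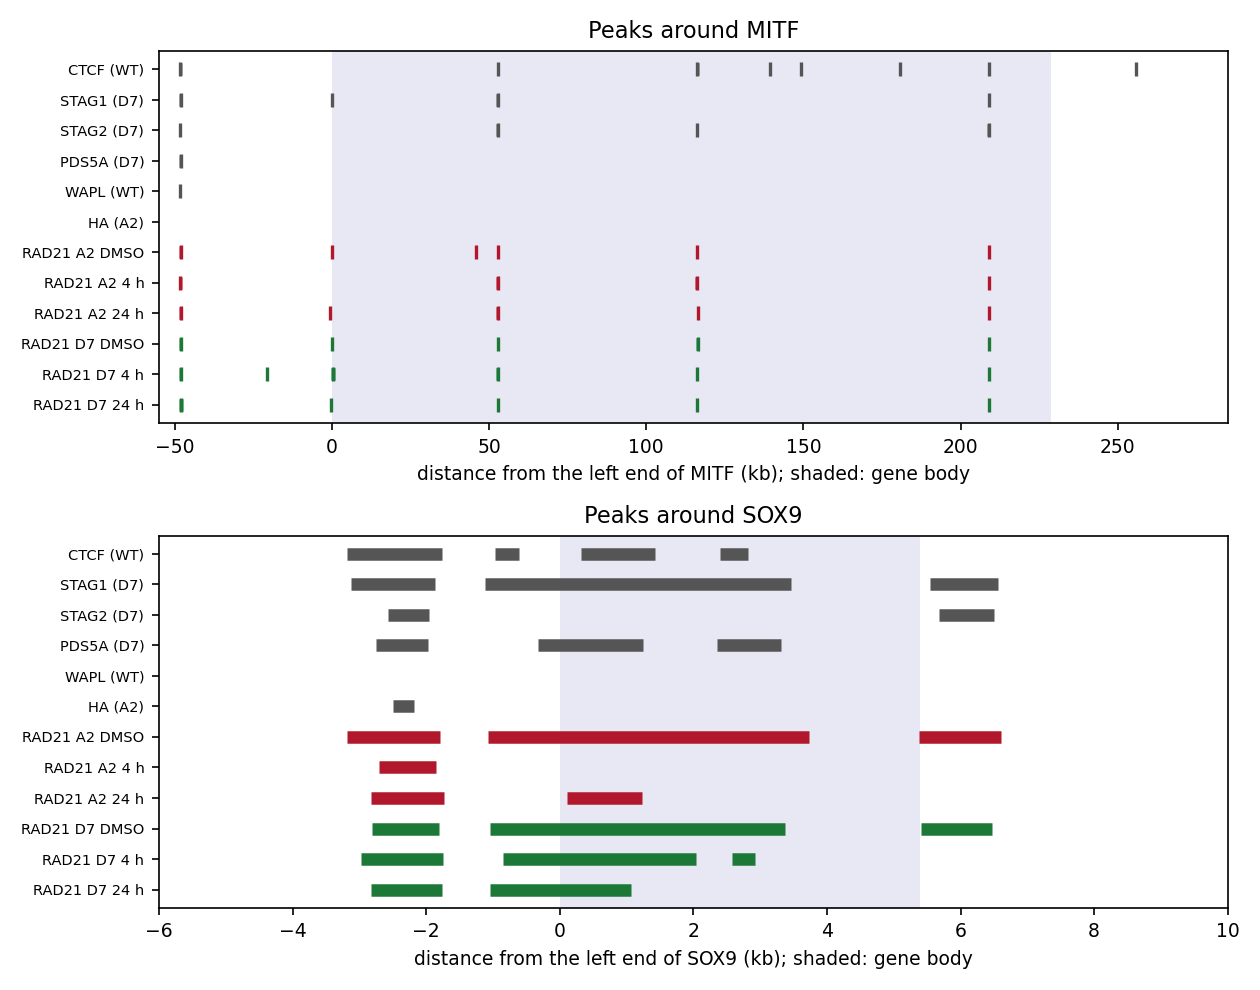
Peaks of the 12 lists (rows) along the MITF window (upper panel, each peak a tick) and near SOX9 (lower panel, each peak a bar to scale), as distance in kb from the end of the gene with the lower coordinate; the gene body is shaded, clone A2 RAD21 is red and clone D7 RAD21 green. At MITF the tick at 0 kb is present in 5 of the 6 RAD21 rows and has no CTCF tick above it; at SOX9 the bars to the right of the gene are present in DMSO alone among the RAD21 rows.

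At gene starts, a peak was counted when its summit lay within 1 kb of an annotated start, known for 6 of the members, or of either gene end for SOX9, BEST1, PMEL and SERPINF1, for which the table gives no start. Of the 6 members with a start, 2 (MITF and PAX6) had a STAG1 summit there and 0 a CTCF summit, beside 29% and 35.3% of all genes with a start. RAD21 summits were at the start of 1, 0 and 1 of the 6 in clone A2, beside 29.5%, 8.29% and 13.8% of genes, and of 2, 2 and 2 in clone D7, beside 32.9%, 36.3% and 19.1%. OTX2, RPE65, RLBP1 and TYR had no summit of any list within 1 kb of a start.

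At the first MITF start, the RAD21 summits lay 370 bp after the start in clone A2 in DMSO, 136 bp after it in clone D7 in DMSO and 45 bp after it in clone D7 at 4 h. At 24 h they lay before it, by 177 bp in clone A2 and by 264 bp in clone D7, and at 4 h clone A2 had no peak there. All were weak, with folds of 3.36, 3.4, 5.74, 2.17 and 2.85 in that order, and the clone A2 peaks in DMSO (chr3:69739333-69739864) and at 24 h (chr3:69738568-69739287) do not overlap each other. STAG1 had a summit 289 bp after the start, with a fold of 4.26. This is the promoter printed above, and CTCF, STAG2, PDS5A, WAPL and HA had no peak on it.

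At one of the 9 PAX6 starts (position 31809959 of chromosome 11), summits of STAG1, clone D7 DMSO RAD21 and clone D7 4 h RAD21 lay 382, 617 and 319 bp upstream, with folds of 3.12, 3.79 and 4.26. At 24 h clone D7 had a RAD21 peak near another PAX6 start instead (chr11:31816962-31817410, fold 2.78), and clone A2 had none near a start in any condition. At SOX9 a broad merged site of 4810 bp covered the left part of the gene (chr17:72119947-72124756) and was present in all RAD21 lists except clone A2 at 4 h, with folds of 19.5 and 3.48 in clone A2 in DMSO and at 24 h, and of 11.8, 6.76 and 4.58 in clone D7 in DMSO, at 4 h and at 24 h. STAG1, PDS5A and CTCF had peaks on it. Of the 4 members without a listed start, SOX9 was the one with any summit within 1 kb of a gene end.

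The accessory subunits and PDS5A lay on the RAD21 sites of the windows about as often as on those of the series. Of the 43 sites, 20 (46.5%) carried STAG1 and 16 (37.2%) STAG2, beside 48.2% and 38.4% of all RAD21 sites. Both lay on 12 (27.9%) and neither on 19 (44.2%), beside 28.6% and 42%, and PDS5A lay on 16 (37.2%), beside 41.5%. Of the STAG1 peaks 17 of 20 (85%) overlapped CTCF, of the STAG2 peaks 15 of 16 (93.8%) and of the PDS5A peaks 17 of 23 (73.9%), beside 87.7%, 85.4% and 74.9% over the whole lists. Among the 16 sites present in all 6 lists, 10 (62.5%) carried both STAG proteins and 10 carried PDS5A, beside 73.2% and 72.2% of such sites in the series. The patterns in the next sentences were chosen after the values were seen. PAX6, RPE65 and TYR had a clone D7 DMSO RAD21 peak but no PDS5A peak, beside 5.37% of all gene windows. RPE65 and TYR had more STAG2 than STAG1 peaks, 3 against 1 and 1 against 0, an order seen, with a clone D7 DMSO RAD21 peak, in 11.4% of all gene windows. BEST1, PMEL and SERPINF1 had 5 PDS5A peaks each, and 27.2% of all gene windows had at least 5.

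The 2 WAPL peaks and the HA peak of the windows all fell on sites present in every RAD21 list. How often all WAPL and HA peaks of the series do so was not counted, so this is no trait of the members. The WAPL peaks lay at the site left of BEST1 (chr11:61947623-61947978, fold 9.33) and at the upstream MITF site (chr3:69691128-69691444, fold 5.95). The HA peak lay at the site left of SOX9 (chr17:72118518-72118837, fold 5.28). The whole WAPL list holds 2667 peaks and the HA list 230, and a median gene window of the series holds 0 peaks of either list.

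The clones in DMSO shared most sites. In the windows, 26 of the 33 clone A2 peaks (78.8%) overlapped a clone D7 peak and 26 of the 30 clone D7 peaks (86.7%) a clone A2 peak, beside 80.5% and 84.4% over the whole lists. Sites in 1 list only were weak: at MITF, 2 such sites had folds of 2.89 (clone A2 in DMSO) and 4.95 (clone D7 at 4 h), and at PAX6 the 3 such sites had folds of 2.78 to 4.7.

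A further 32 genes of the pigment epithelium, in lists of transcription factors, pigment genes, visual cycle genes and genes of transport, secretion and phagocytosis, were counted in the same way. Peak numbers in this paragraph are sums over gene windows, so a peak in overlapping windows counts for each of them. All 32 had a RAD21 peak in at least 1 list. In clone A2 they held 116, 77 and 75 RAD21 peaks, ratios of 0.664 and 0.647, with 18 genes lower and 2 higher at 4 h and 17 lower and 3 higher at 24 h. The ratios over all gene windows were 0.595 and 0.663. In clone D7 they held 120, 125 and 74, ratios of 1.04 and 0.617, with 5 lower and 10 higher at 4 h and 20 lower and 4 higher at 24 h, beside ratios of 1.06 and 0.738 over all gene windows. The shares of all windows that were lower or higher are those given for the 10 members. The widest drop in number was at SLC16A3, a lactate exporter, with 13, 1 and 1 peaks in clone A2 against 11, 7 and 1 in clone D7, while RAX, an eye-field factor, had 2 peaks in every RAD21 list. Genes that mark other cell types, of which CRX and CDH1 are also among the 32, were counted too. In clone A2 the 6 neural retina genes held 20, 17 and 17 RAD21 peaks, the 8 mesenchymal genes 42, 24 and 22, and the 4 epithelial genes 22, 18 and 18. At 24 h in clone A2, 2 neural retina, 8 mesenchymal and 2 epithelial genes were lower and 0 of any set higher, beside 59.6% and 5% of all gene windows. At 24 h in clone D7, 2 neural retina, 3 mesenchymal and 2 epithelial genes were lower and 1 of each set higher, beside 51.8% and 9.53%. In clone D7 the 6 neural retina genes held 20, 27 and 18 RAD21 peaks, the 8 mesenchymal genes 37, 36 and 32, and the 4 epithelial genes 22, 23 and 19.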

How the data were processed

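ChIP-seq was measured in 22 samples of hTERT RPE-1, 12 immunoprecipitations with a narrowPeak list and 10 inputs not analysed on their own. Per the submitters' processing notes, BWA, Picard, SAMtools, bedtools, deepTools and MACS2 and the builds hg38 and mm10 were used; their versions and roles are not given in the sources used here. The authors deposited, per peak, a fold enrichment (a ratio), −log10 p, −log10 q and a score, which was not used. Per the peak names, each list was called on 1 immunoprecipitation and 1 input, at q 0.001 for CTCF and 0.01 for the rest. Per the labels' protocols, the CTCF library had its own kit and a size selection.

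From these lists, peaks were assigned to genes of the RefSeq table of GRCh38.p14, which gives no strand or exons, by summit within 50 kb, and compared by overlap of at least 1 bp, with Python 3.11.15, pandas 2.3.3, NumPy 2.4.6 and SciPy 1.17.1; the scripts were tested on simulated peaks. Coordinates count from 1. Read totals were not part of the lists, so depth is the lowest background pileup recovered from fold and p (1.77 to 13.4 in 11 lists, not recovered for HA). The members and gene lists were chosen with earlier results of these data known. 1 gene of the further lists is not reported here. Named peaks followed a rule: the strongest clone D7 DMSO peak of each window, peaks within 1 kb of a start, the 3 strongest sites in all 6 lists and the 3 lost after dTAGV-1, and all HA and WAPL peaks; other sites named were chosen after their values were seen. Alternatives varied the q threshold, the window, the list length, the overlap rule, the CTCF set and the members.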

Additional observations from a re-analysis of the deposited data

Results flagged for a closer look

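In 4 cases the clones moved in opposite directions under the same treatment, each with 1 library per condition, and no test of the difference was possible with these libraries; it was not tested. In the MITF window the number of RAD21 peaks changed by -2 in clone A2 and by 1 in clone D7 at 4 h of dTAGV-1 against DMSO. In the SOX9 window it changed by -3 in clone A2 and by 1 in clone D7 at 4 h. Of all protein-coding gene windows, 24.6% had this pair of directions at 4 h and, for comparison with TYR, 6.08% at 24 h. In the TYR window it changed by -1 in clone A2 and by 1 in clone D7 at 24 h. These net numbers hide a change of sites. The clone A2 DMSO peaks of TYR, with folds of 12.8 and 18.5, had no peak at 24 h in clone A2. The clone A2 peak at 24 h lay at another site (chr11:89203888-89204364). In clone D7 the sites of those DMSO peaks had folds of 8.58 and 14 at 24 h, against no peak and 5.5 in DMSO. The share of RAD21 peaks on CTCF over the 10 windows changed by 18.2 percentage points in clone A2 and by -6.67 points in clone D7 at 4 h. The 4 h lists of the clones hold 25763 and 39059 peaks, and their lowest background pileups were 3.16 and 4.05; the part of these in the differences was not tested.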

How the results depend on the processing

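Of 252 alternative values, 172 were classed as near the reported value, 79 as moved and 1 as reversed. A direction against DMSO applies to the peak number ratios only, as the other values are counts and shares. The near class was wide: the clone A2 4 h ratio of 0.75 (−log10 q of at least 10) counted as near 0.576. For clone D7 at 4 h the reported ratio was 1, which gives no direction to keep. Its alternatives, from 0.84 (−log10 q of at least 10) to 1.11 (gene body alone), all counted as near. Each group has 1 library, so no replicate could be left out. No paired analysis was possible because each group has 1 library and no test was run. MITF, SOX9 and PMEL tie for the most clone D7 DMSO peaks and were left out in turn.

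With RAD21 lists of equal length, the peak number ratios became 1 (clone A2, 4 h), 1.05 (clone A2, 24 h, reversed from 0.667) and 1 (clone D7, 24 h). The cut removes the weaker peaks of the longer lists and so brings ratios near 1 by construction. Sites in both DMSO lists only became 0, retention in clone A2 84.2% at 4 h and at 24 h, and CTCF shares 100% (A2 DMSO), 100% (A2 24 h), 95% (D7 DMSO), 94.4% (D7 4 h) and 100% (D7 24 h). Retention in clone D7 was 75% at 4 h and at 24 h, so at both times the clones stood in the reverse order of the reported values.

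With a −log10 q of at least 10, HA had 0 peaks and PDS5A 13. Retention in clone A2 became 75% at 4 h and 79.2% at 24 h, and in clone D7 76% and 68%. At 24 h the clones thus stood in the reverse order of the reported values. CTCF shares became 95.8% (A2 DMSO), 100% (A2 24 h), 96% (D7 DMSO), 95.2% (D7 4 h) and 100% (D7 24 h). Members with a peak at the start, here over all 10 and with either gene end for the 4 without a listed start, became 1 for STAG1 (from 3), 0 for STAG2 (from 1), and for RAD21 1 (A2 DMSO, from 2), 1 (A2 24 h, from 2), 1 (D7 DMSO, from 3) and 0 (D7 24 h, from 3).

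In the gene body alone, CTCF had 19 peaks, WAPL 0, HA 0, STAG1 5, STAG2 4, PDS5A 5, clone A2 RAD21 8, 4 and 6 and clone D7 RAD21 9, 10 and 7 (DMSO, 4 h, 24 h), with 4 sites in all 6 lists, 0 in both DMSO lists only, and a clone A2 24 h CTCF share of 100%. Within 20 kb the numbers were CTCF 30, WAPL 1, STAG1 11, STAG2 9, PDS5A 11, RAD21 16, 9 and 13, and 16, 16 and 14, with 9 sites in all 6 lists and 1 in both DMSO lists only. Within 100 kb they were CTCF 83, WAPL 6, STAG1 33, STAG2 27, PDS5A 36, RAD21 54, 35 and 37, and 51, 50 and 41, with 29 sites in all 6 lists. A wider window holds more DNA.

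With summits within 2.5 kb of a start, members counted in the same way were CTCF 5, WAPL 1, HA 1, STAG2 2, PDS5A 3, and RAD21 2 (A2 4 h), 5 (D7 DMSO) and 5 (D7 4 h). With summits within 200 bp, clone D7 24 h retention was 53.3%. On the upper 50% of CTCF peaks, clone D7 CTCF shares were 60% at 4 h and 72% at 24 h. Without MITF, WAPL had 1 peak; without SOX9, HA had 0; without PMEL, 1 site lay in both DMSO lists only. Where no cause is given, the cause was not tested.

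The background pileup was 13.4 in the CTCF list and 1.87 to 4.05 in the RAD21 lists. A missing peak in a RAD21 list shows that no call passed the q threshold, not that binding is absent.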
